A study of Drosophila melanogaster with 5 samples.

Results

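The y1w1118 line of Drosophila melanogaster served as the wild-type stock of a study of the zinc finger protein Mzfp1 (CG1603), and its larvae were described here on their own. The members were the libraries labelled y1w1118, 2 of the 5 samples in the series, and the other 3 samples, which carry the CG1603attP deletion of that gene, were not analysed here. RNA-seq was performed on polyadenylated RNA from whole 3rd-instar larvae reared at 25 °C, and each library came from 100 mg of pooled larvae, with neither the sex of the animals nor their age within the instar given in the labels. Both libraries carry the y1 and w1118 alleles, loss-of-function alleles of the body pigment gene yellow and the eye pigment gene white, with no other alteration or treatment listed. Of 17735 gene identifiers in the files, 17597 were analysed after 138 ribosomal RNA genes had been set aside. No genotypes were compared, so the results below are levels and their spread, without tests.

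A 3rd-instar larva is a feeding animal whose mass lies mostly in body wall muscle, fat body, gut and epidermis. Body wall muscle moves the animal by means of sarcomeres built from actin, myosin and giant elastic proteins. The fat body stores lipid and releases lipoproteins into the haemolymph, the midgut secretes proteases that digest food protein, and the epidermis lays down a chitin cuticle that is replaced at each moult. Adult tissues are present as small imaginal discs, and the germ line as small gonads. RNA from whole larvae mixes all of these, so that the number of cells of a type and the RNA per cell cannot be told apart in any value given here.

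The analysed reads numbered 10954811 in replicate 1 and 9044930 in replicate 2. Levels are given as counts scaled to the analysed reads of a library (CPM), which are shares of the reads and grow with the length of a transcript. In TPM, reads are divided by the summed exon length of the gene before scaling to the same total. Ranks and leading genes given with CPM order genes by their share of the reads, which favours long transcripts, and a comparison of levels per length is given in TPM. In each pair of values below, replicate 1 precedes replicate 2. One read equals 0.0913 and 0.111 CPM, and 3 reads, taken as the limit that a count of 0 allows, equal 0.274 and 0.332 CPM. These limits cover counting error only. Of the genes in the name of the line, w had 29.8 and 28.3 CPM and y had 5.29 and 19.6 CPM. Counts over a whole gene do not check either allele, since a gene with a partial deletion or a point mutation can still be transcribed. CG1603, which is not altered in this line, had 11.3 and 11.3 CPM. The reference gene RpL32 had 962 and 965 CPM.

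At least 1 read was counted in both libraries for 12306 genes, which is 69.9% of those analysed. A level of 1 CPM or more in both libraries, called detected here, was reached by 9958 genes (56.6%). The number fell off steeply above that, to 6607 genes at 10 CPM, 1592 genes at 100 CPM and 143 genes at 1000 CPM. Among detected genes the median level was 22.6 CPM, or 21.2 TPM for the 9875 of them with an annotated exon length. Protein-coding genes took 97.9% and 97.8% of the reads, and 9503 of 13832 were detected. Genes of non-coding RNA took 0.767% and 0.832%, and 294 of 2732 were detected.

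The reads were concentrated on few genes. The 10 genes of highest mean CPM held 12.8% and 12.8% of the analysed reads, the first 100 held 34.0% and 33.9%, and the first 1000 held 70.5% and 69.5%. Put the other way, 277 genes in replicate 1 and 292 in replicate 2 sufficed for 50% of the reads. The curves of level against rank from both libraries lay nearly on top of each other over the whole range.

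**Figure D1:**
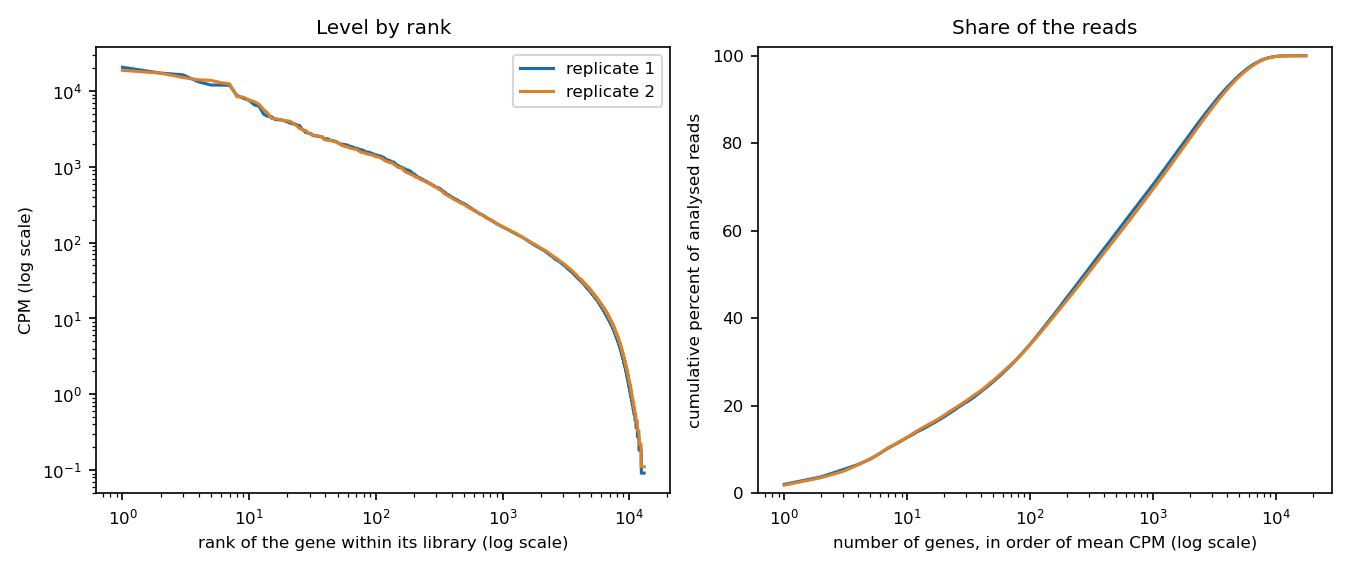
Level of each gene (CPM, log scale) against its rank in its own library, left, and cumulative percent of the analysed reads against the number of genes in order of mean CPM, right (blue, replicate 1; orange, replicate 2). Both libraries follow the same curve, with 34.0% and 33.9% of the reads on the first 100 genes.

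The most abundant genes were those of muscle, of translation and of energy metabolism. Mhc, the myosin heavy chain of muscle (chr2L:16766566-16788766, dm6, plus strand), had the highest mean CPM, with 20581 and 18775 CPM. It was followed by bt, which encodes the titin-related sarcomere protein projectin and lies on chromosome 4 (chr4:724400-776474, plus strand), with 17253 and 17236 CPM. Act57B, a muscle actin gene (chr2R:20944021-20946431, plus strand), had 16369 and 14063 CPM. For Mhc and Act57B replicate 1 was the higher library, and for bt the libraries were almost equal.

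Next in order of CPM stood genes of other functions. The mitochondrial gene mt:CoI, a subunit of cytochrome c oxidase, had 11973 and 15082 CPM. The gene of the haemolymph lipoprotein apolipophorin, apolpp, had 11951 and 13834 CPM, and eEF1alpha1, which carries aminoacyl-tRNA to the ribosome, had 13203 and 12436 CPM. The order of Act57B, mt:CoI, apolpp, eEF1alpha1 and Msp300 (12011 and 12895 CPM) differed between the libraries, mt:CoI being above Act57B in replicate 2, so that these neighbours could not be ranked. FASN1, the fatty acid synthase (8738 and 8427 CPM), eEF2, which moves the ribosome along the message (8021 and 8303 CPM), and sls, the gene of the titin-related protein Sallimus (7545 and 7226 CPM), completed the first 10.

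Ranks 11 to 30 covered a range from 6303 and 7634 CPM for mt:CoIII down to 2725 and 2546 CPM for the paramyosin gene Prm. Muscle contributed the myosin light chain genes Mlc2 (6569 and 6682 CPM) and Mlc1 (2793 and 3030.2 CPM) and the sarcoplasmic calcium pump gene SERCA with 4948 and 4344 CPM. Mitochondria contributed mt:Cyt-b and mt:CoII, the ATP synthase genes ATPsynbeta (4585 and 5115 CPM), ATPsynC (3507 and 3619.7 CPM) and blw (3551 and 3164 CPM), and the ADP/ATP carrier gene sesB (4174 and 4171 CPM). The chaperone gene Hsc70-4 had 4163 and 4048 CPM, and Hsp83, which folds signalling proteins, had 3706 and 4349 CPM. The others were the extracellular matrix gene dpy, the cytolinker gene shot (4048 and 4075 CPM), the cytoplasmic actin gene Act5C (3907 and 3833 CPM), pAbp, the proton pump gene Vha16-1 (3169 and 3429.9 CPM), RpL4 and CG7465. Of these 30 genes only CG7465 belonged to none of the gene lists used. The lists that place sesB, dpy and shot were among 6 added after the levels were seen, so this coverage is a description.

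**Figure D2:**
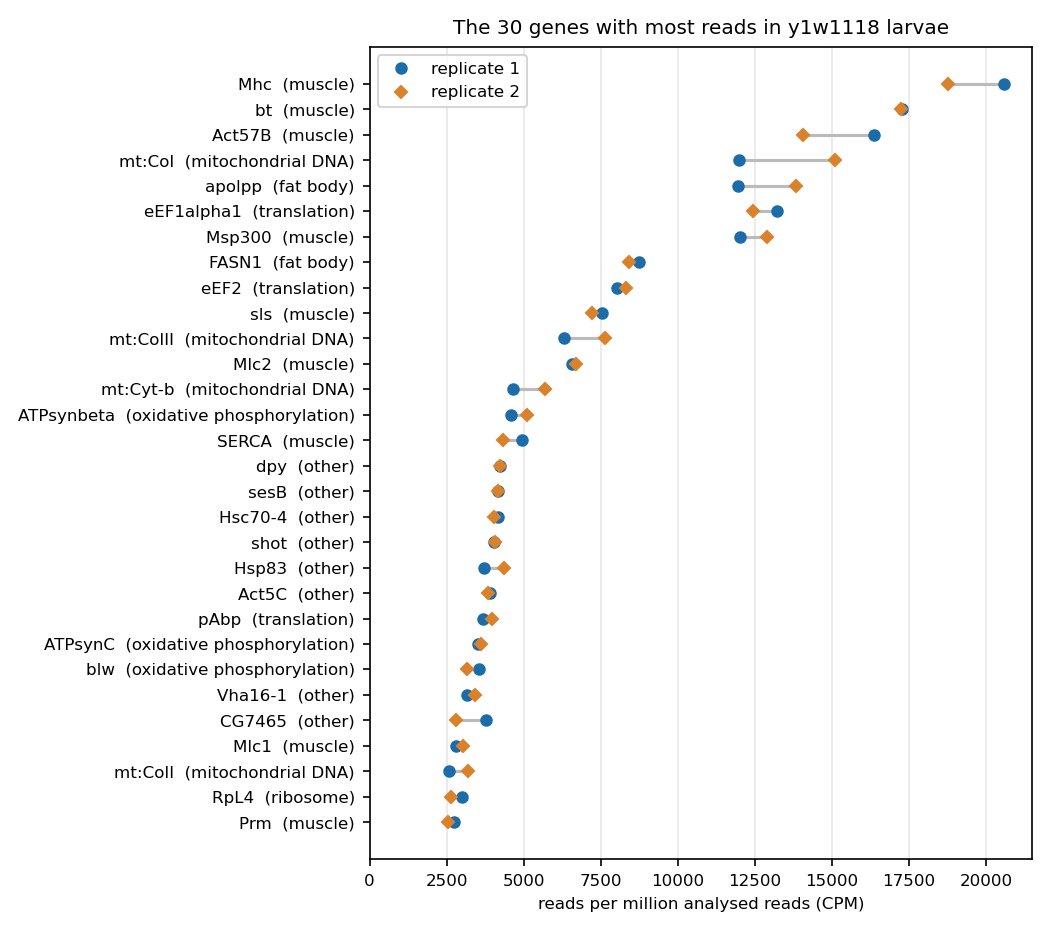
The 30 genes of highest mean CPM, with replicate 1 (blue circles) and replicate 2 (orange diamonds) joined by a grey line, on a linear axis that starts at 0; the list a gene belongs to stands in brackets. Mhc leads with 20581 and 18775 CPM, and the 4 mitochondrially encoded genes lie higher in replicate 2.

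Division by exon length changed the order. The highest mean TPM belonged to mt:CoIII (16514 and 19832 TPM), Act57B (19626 and 16719 TPM) and mt:CoI (16113 and 20125 TPM), whose ranges overlapped. RpL41, one of the shortest ribosomal protein genes with 320 exon bases, came next with 12715 and 14338 TPM, although it ranked only 49 by CPM. Others among the first 15 were eEF1alpha1, mt:Cyt-b, mt:CoII, mt:ATPase6, CG7465, Mlc2, eEF2, RpL27A, RpL39 and mt:ND1, the last with 4232 and 5392 TPM. Giant muscle genes dropped: Mhc ranked 18 by TPM, bt 149, Msp300 398 and sls 541. The 3 giant genes bt, Msp300 and sls together held 3.68% and 3.74% of the reads but 1893 and 1890 TPM in sum.

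Of the 100 genes of highest CPM, 29 encoded cytosolic ribosomal proteins, 16 belonged to the muscle list, 8 to the mitochondrial genome and 5 to the translation factors. Genes in no list numbered 13, with the 6 lists added after the levels were seen counted as lists. They included Glyp, the glycogen phosphorylase (2340.3 and 1973 CPM), Mp20, a muscle protein gene (1694 and 1563 CPM), Rack1, a ribosome-bound scaffold (1714 and 1419.7 CPM), and Aldh, an aldehyde dehydrogenase (1567 and 1489.7 CPM). Among the others, Muc96D had 2833 and 2076 CPM, CG13731 1739 and 1717 CPM, Vajk3 1611 and 1362 CPM and frm 1489 and 1493 CPM.

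A few such genes lay near each other on chromosome arm 3L (dm6). CG7465 (chr3L:4480283-4481487, plus strand) had 3787 and 2797 CPM, and its neighbour CG11350 (chr3L:4482809-4484370) had 1981 and 1206 CPM. CG32241, also on this stretch (chr3L:4465105-4466630), had 1560.1 and 1196 CPM. All 3 were higher in replicate 1, and they held 7328 and 5199 CPM together. Other genes of this stretch were not at this level. Between them, CG32249 had 5.84 and 2.10 CPM and CG32248 26.4 and 24.9 CPM, and the next gene after CG11350, CG13722, had 203 and 171 CPM. These genes were singled out after their values were seen.

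Muscle took the largest share of the reads among the 50 lists of tissue and function. Its 25 genes held 11.2% and 10.7% of the analysed reads, a mean of 11.0% ± 0.376 (SD, n = 2), and all 25 were detected. Thin-filament genes were represented by wupA, the troponin I (2526 and 2648 CPM), up, the troponin T (2478 and 2132 CPM), and the tropomyosin genes Tm1 (2223 and 2182 CPM) and Tm2 (1997 and 2009 CPM). Genes of the Z-disc, where sarcomeres join, had 1667 and 1493 CPM for Actn and 976 and 949 CPM for Zasp66. The lowest member by CPM was the troponin C gene TpnC25D, with 85.4 and 83.0 CPM. Per length, Act57B exceeded the other muscle actin gene of the list, Act87E, with 19626 and 16719 TPM beside 457 and 408 TPM.

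Ribosomal protein genes stood next, with 9.29% and 8.86% of the reads (9.07% ± 0.304, SD, n = 2), and 84 of 87 were detected. Per length they stood first: 21.0% and 19.97% of summed TPM came from ribosomal proteins, against 5.38% and 4.97% from muscle. The order of these groups therefore depended on the scale. The median ribosomal protein gene had 2230.2 TPM over all 87 members, beside 5.22 TPM over all analysed genes with an exon length. Leading members by CPM were RpL4 (3005 and 2637 CPM), RpL7 (2514 and 2543 CPM) and RpS3A (2133 and 2493 CPM). The members not detected were RpL10Aa, with 1 and 1 reads, RpL37-2 with 2 and 2 reads and RpS28a with 0 and 0 reads, and their paralogs had 2315 and 2394 TPM for RpL10Ab, 2465 and 2329 TPM for RpL37-1 and 1923 and 1883 TPM for RpS28b.

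Translation factors held 3.49% and 3.46% of the reads, most of it on eEF1alpha1, eEF2 and pAbp, the poly(A)-binding protein (3686 and 3986 CPM). Among initiation factors eIF4A, the RNA helicase that opens the start of the message, had the highest CPM (1442 and 1418 CPM), and eIF4G1, its scaffold, had 1212 and 1370.5 CPM. Only eIF5 was not detected in this list, with 9 and 10 reads. The 18 aminoacyl-tRNA synthetases, which charge tRNAs, held 0.222% and 0.217% and all were detected. ThrRS had the highest mean TPM (145 and 136 TPM), with SerRS (146 and 129 TPM) above it in replicate 1.

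Energy metabolism appeared in both genomes. The 13 mitochondrially encoded messages held 3.42% and 4.30% of the reads (3.86% ± 0.620, SD, n = 2), a spread wider than that of any list above it in share, and every one of the 13 was higher in replicate 2. The range ran from mt:CoI down to mt:ND3 (65.1 and 79.7 CPM). Nuclear genes of oxidative phosphorylation held 2.50% and 2.46%, with 63 of 66 detected. The 17 genes with ATP synthase symbols, some of them outside this list, accounted for 1.55% and 1.55% of the reads. The complex I gene of highest mean CPM, ND-49, had 349 and 366 CPM, with ND-75 (359 and 302 CPM) above it in replicate 1. That of complex III, UQCR-C1, had 682 and 606 CPM. Cyt-c-p, the somatic cytochrome c, had 721 and 782 CPM.

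Glycolytic enzymes held 1.43% and 1.22% and all 13 were detected, each of them higher in replicate 1. Ald1, the aldolase, led by CPM (2582 and 2237 CPM), while Gapdh2 led per length (2989.6 and 2707 TPM). Ldh, which makes lactate, had 907 and 776 CPM. Tricarboxylic acid cycle genes held 0.659% and 0.610%, the aconitase gene mAcon1 leading per length with 1178 and 1056 TPM. The vacuolar proton pump held 1.21% and 1.26%, with 22 of 32 detected. Its undetected members included 8 of 32 at 3 reads or fewer in each library, beside 5477 of 17597 over all genes. Among these 8 were Vha16-2 and Vha16-3, paralogs of Vha16-1, at 0 reads.

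**Figure D3:**
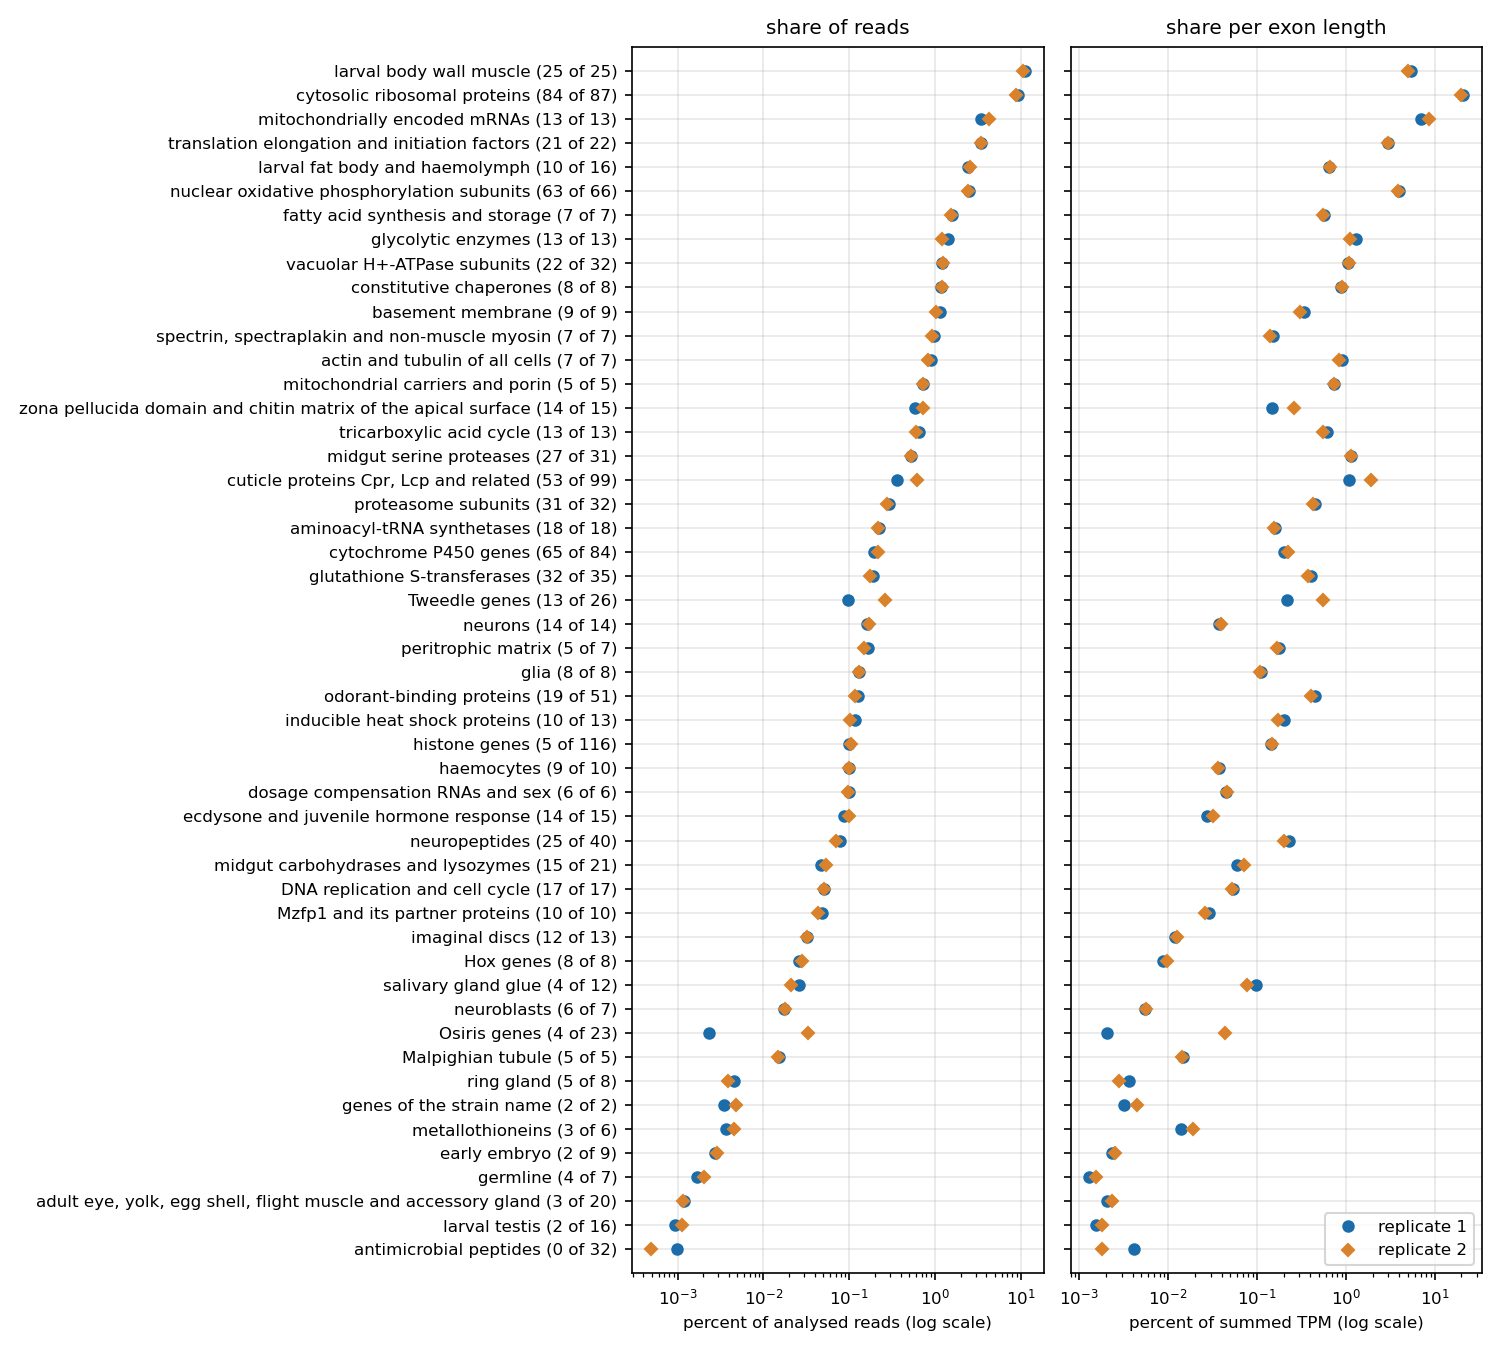
Share of the analysed reads (left) and of summed TPM (right) for 50 gene lists, in percent on log scales, with replicate 1 in blue and replicate 2 in orange; brackets give the detected members of those found. Muscle leads by reads and ribosomal proteins by TPM; the Osiris and Tweedle lists show the widest gaps between the libraries.

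Genes known from the fat body divided sharply. The 16 genes of the list held 2.43% and 2.59% of the reads, most of it on apolpp and on FASN1, with Desat1, a fatty acid desaturase, at 1706 and 1819.7 CPM and Apoltp, a lipid transfer particle gene, at 1023 and 1126 CPM. The lipid droplet coat gene Lsd-2 had 380.0 and 296 CPM, and the triglyceride lipase gene bmm had 64.0 and 53.0 CPM. Larval serum protein genes, which the fat body of late 3rd-instar larvae is known to transcribe strongly, were low. Lsp1alpha had 4 and 0 reads, Lsp1beta 35 and 4 reads, Lsp1gamma 93 and 63 reads and Lsp2 4 and 1 reads, and these 4 genes summed to 12.4 and 7.52 CPM. Fbp1, the receptor through which the fat body takes up serum proteins, had 6 and 2 reads.

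Genes of fatty acid synthesis were all detected. Beside FASN1, the acetyl-CoA carboxylase gene ACC had 2579 and 2551 CPM, the citrate lyase gene ATPCL 1387 and 1286 CPM and the malic enzyme gene Men 1362 and 1295 CPM. The list held 1.58% and 1.54% of the reads, with FASN1 and Desat1 counted in this and in the fat body list. The acyltransferase genes of triglyceride synthesis had 29.4 and 37.5 TPM for mdy and 1.59 and 4.69 TPM for Dgat2, beside 2066 and 1975 TPM for FASN1.

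Salivary gland genes divided in a like manner. Glue genes of the Sgs group, known to be transcribed in the salivary glands of late 3rd-instar larvae, had 28 and 13 reads in all 7 genes together, of which Sgs4 had 19 and 12. The pre-intermoult genes ng1, ng2 and ng3, which the gland transcribes before the glue genes, were higher per length: ng1 had 285 and 289 TPM, ng2 288 and 213 TPM and ng3 381 and 266 TPM, beside 3.77 and 2.86 TPM for Sgs4. These may be undercounts, since the summed stranded columns of the files hold 4569 and 3696 reads for ng1, against 789 and 666 reads in the unstranded column used here, and 4613 and 3548 against 832 and 513 for ng2. Markers of late 3rd-instar fat body and salivary gland were thus low or near 0 in these larvae, and the labels do not place the animals within that instar.

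Digestive genes of the midgut took nearly equal shares in the libraries. The list of serine proteases held 0.523% and 0.533% of the reads, with 27 of 31 detected. Jon99Ciii, a Jonah protease, had the highest CPM and TPM of the list (912 and 973 CPM), followed by Jon99Cii (578 and 627 CPM) and Jon65Aiv (506 and 544 CPM). The trypsin gene epsilonTry had 517 and 382 CPM, while deltaTry had 1 and 0 reads and gammaTry 0 and 0 reads. The unstranded column may undercount others: Jon99Fi had 4022 and 3287 reads, against 23679 and 18896 in the summed stranded columns, and Jon99Fii 211 and 138 against 13201 and 10168, with no annotated exon overlap for either gene. The cause was not tested. Carbohydrases, lysozymes and related gut genes held 0.0476% and 0.0543%, the lysozyme gene LysS leading per length (129.6 and 197 TPM) and the cholesterol transporter gene Npc1b by CPM (108 and 110.1 CPM). The chitin-lined peritrophic matrix of the gut was represented by Peritrophin-15a (859 and 769 TPM), Muc26B (659 and 663 TPM) and Muc68Ca (200.4 and 159.9 TPM).

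Cuticle genes covered a wide range of levels. Of 99 genes of the Cpr, Lcp and related cuticle families, 53 were detected, beside 9958 of 17597 over all genes. Of the 99, 23 had 3 reads or fewer in each library, beside 5477 of 17597 over all genes. Per length the highest were Lcp65Ag1 (1757 and 2725 TPM), Lcp65Af (636 and 2463 TPM) and Lcp65Ag3 (1412 and 1506 TPM). Members of the Lcp65A cluster are close copies of each other, so that the division of reads among them is uncertain. In the apical matrix dpy, which anchors epidermis to cuticle, took the most reads (4218 and 4241 CPM) on 71820 exon bases, which gave 121 and 121 TPM. Per length the chitin deacetylase genes verm (525 and 915 TPM) and serp (286 and 496 TPM) stood first. The chitin synthase gene kkv had 107 and 135 CPM. Basement membrane genes held 1.14% and 1.04%, and per length the collagen genes Col4a1 (724 and 575 TPM) and vkg (586 and 458 TPM) and SPARC, which binds collagen (643 and 614 TPM), stood above trol, the perlecan (225 and 223 TPM).

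All of the neuronal genes were detected. The 14 neuronal genes held 0.162% and 0.171% of the reads and had a median of 24.4 TPM. Per length they ranged from ChAT, which makes acetylcholine (9.27 and 9.04 TPM), to nSyb, the synaptic vesicle fusion gene (48.4 and 51.2 TPM). The pan-neuronal gene elav had 106 and 126 CPM and 20.5 and 24.2 TPM. Among glial genes repo, the transcription factor that defines glia, had 4.66 and 3.98 CPM, while Gs2, a glutamine synthetase that other tissues also transcribe, had 1018 and 961 CPM. Among neuroblast genes mira, which segregates fate determinants, had 13.8 and 13.9 CPM and ase had 3.47 and 4.31 CPM. Of 40 neuropeptide genes 25 were detected, the first per length being Nplp4 (1910.5 and 1596 TPM) and the next CCHa2 (42.2 and 44.1 TPM).

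Other small tissues were also visible. Haemocyte genes summed to 0.1003% and 0.1003%, with 9 of 10 detected. The clotting gene Hml made up most of this sum, with 599 and 620.2 CPM of 1003 and 1003 CPM. The crystal cell enzyme gene PPO2 had 97.1 and 85.9 CPM, and lz had 22 and 2 reads. The urate oxidase gene of the Malpighian tubule, Uro, had 28.2 and 28.7 CPM. Disc-patterning genes held 0.0320% and 0.0326%, with 44.6 and 45.0 CPM for dpp, 13.4 and 20.9 CPM for wg and 0.913 and 2.21 CPM for vg. The 8 Hox genes were all detected, the abdominal gene abd-A highest at 38.9 and 38.6 TPM and pb lowest at 1.11 and 1.34 TPM. Of the ecdysone-producing enzymes of the ring gland, spok had 8.31 and 5.97 CPM and phtm had 5.93 and 2.54 CPM. Lower enzymes of this list were sad with 2.92 and 1.55 CPM, sro with 7 and 7 reads and dib with 0 and 6 reads. Of the 8 ring gland genes found, 5 were detected.

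Genes of gonads, adult structures and immune effectors took the smallest shares of the 50 lists. Germ line genes summed to 17.0 and 20.1 CPM, with 3.44 and 3.91 TPM for aub and 2.89 and 4.07 TPM for vas. Of 16 testis genes, 14 had 3 reads or fewer in each library, betaTub85D and ProtA being at 0 reads. Of 20 genes of adult eye, yolk, egg shell, flight muscle and accessory gland, 12 had 3 reads or fewer in each. Over all genes, 5477 of 17597 had so few. None of the 32 antimicrobial peptide genes was detected, Drs having 22 and 4 reads, and the list summed to 9.95 and 4.86 CPM. Of 13 inducible heat shock genes 10 were detected, Hsp26 (1205 and 1005 TPM) and Hsp23 (341 and 347 TPM) being highest per length. Hsp22 had 0 and 0 reads, and the 6 Hsp70 genes summed to 26.5 and 33.3 CPM. The Hsp70 values may be undercounts, since Hsp70Aa had 24 and 22 reads against 2130 and 1817 in the summed stranded columns.

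Families of detoxification and chemical sensing were detected in part. Of the cytochrome P450 genes 65 of 84 were detected, with 0.193% and 0.215% of the reads, Cyp4g1, which makes cuticular hydrocarbons, being highest per length (359 and 307 TPM). Glutathione S-transferases held 0.191% and 0.177%, GstD1 being highest per length (1305 and 1120.1 TPM). Of the odorant-binding protein genes 19 of 51 were detected, Obp56a first per length with 3773 and 3054 TPM. All 17 genes of DNA replication and cell cycle were detected, at 0.0506% and 0.0504%, and per length the ribonucleotide reductase gene RnrS (198 and 181 TPM) and PCNA, the sliding clamp of replication (104 and 105 TPM), were highest. Among hormone-response genes Eip75B, a nuclear receptor induced by ecdysone, had 367 and 332 CPM and EcR, the ecdysone receptor, had 119 and 140.0 CPM. Of the 6 metallothionein genes, which bind metals, MtnA had 26.7 and 25.3 CPM.

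**Figure D4:**
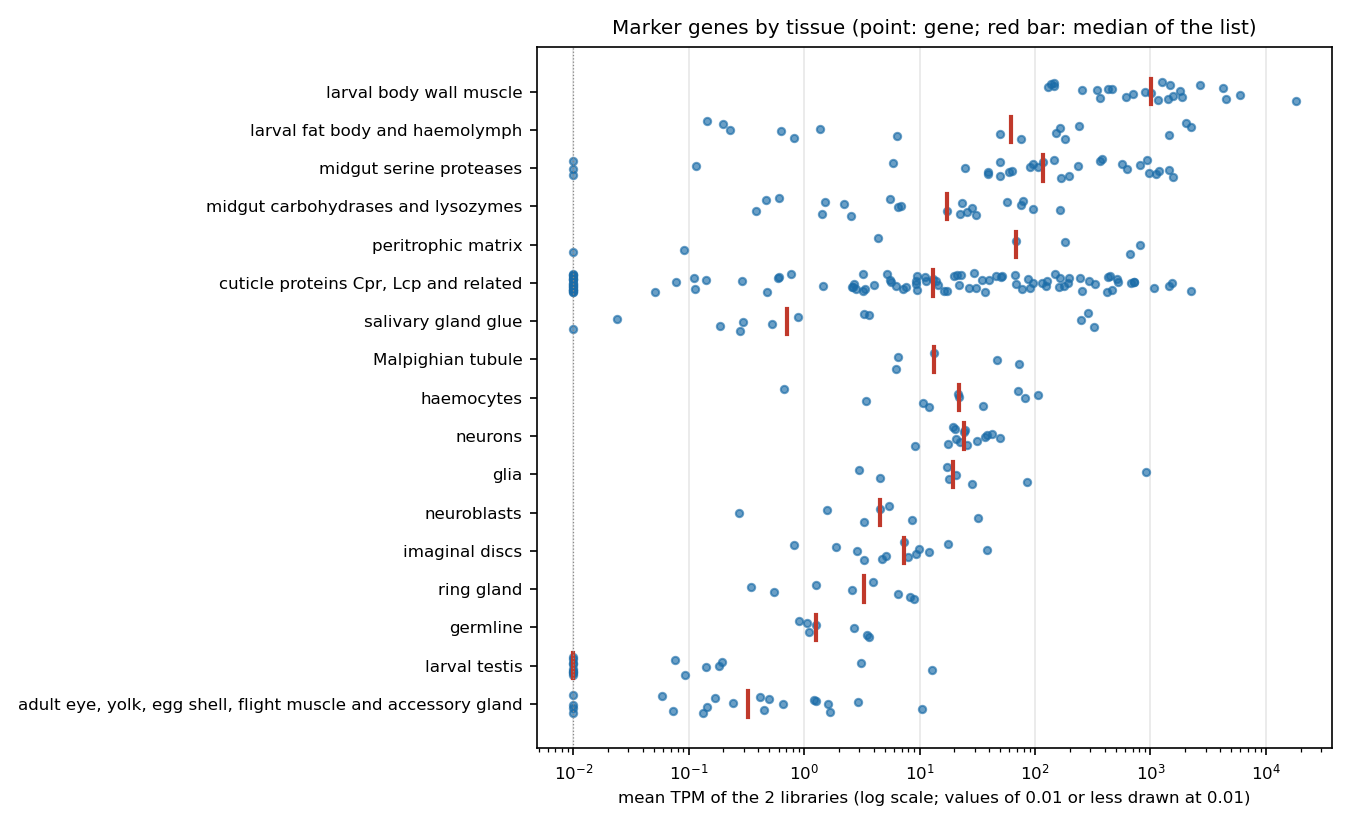
Mean TPM of each gene (points, log scale) in 17 lists of tissue markers, with the median of each list as a red bar; values of 0.01 TPM or less are drawn at 0.01. The muscle list has the highest median of the tissues drawn, the fat body and glue lists hold both high and very low genes, and the testis and adult lists lie at the bottom.

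Of the RNAs of the male dosage compensation complex, lncRNA:roX1 had 653 and 601 CPM and lncRNA:roX2 had 81.6 and 108 CPM. Sxl, which is transcribed in both sexes and makes its functional protein in females through splicing, had 220.4 and 235 CPM, a count over the whole gene that does not separate the sexes. Y-linked genes summed to 5.11 and 4.98 CPM, and 1 of 113 was detected, Su(Ste):CR42430 with 15 and 17 reads. Other abundant non-coding RNAs were lncRNA:CR42862 (2350.0 and 2784 CPM), the stress-responsive lncRNA:Hsromega (1334 and 1645 CPM), lncRNA:cherub (411 and 361 CPM) and the RNA subunits of RNase MRP (348 and 254 CPM) and RNase P (296 and 218 CPM).

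Among nuclear chromosomes the small chromosome 4 stood out in share per gene. Its 111 genes held 4.55% and 4.98% of the reads, of which bt, apolpp, ATPsynbeta and RpS3A alone gave 3.59% and 3.87%. On chromosome 4, 80 of 111 genes were detected (72.1%), against between 50.5% and 60.8% on the other arms. The detected genes had a median of 42.0 TPM on chromosome 4, against between 19.8 and 22.0 TPM on the other arms. The detected genes of chromosome 4 were also longer, with a median of 4356 exon bases, against between 1980 and 2393 on the other arms. The arms 2L, 2R, 3L, 3R and X held from 13.1% to 21.2% of the reads each.

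Genes of the heterochromatin, the repeat-rich regions near the centromeres, formed a class of their own in the study. Of 240 such genes 128 were detected (53.3%), against 9651 of 16941 (56.97%) in the rest of these 5 arms. The detected heterochromatic genes had a median of 26.9 TPM (26.5 and 29.0 TPM), beside 21.0 TPM (20.5 and 21.3 TPM) in the rest. Over all genes, without the limit of 1 CPM, the order reversed, with 3.88 TPM in heterochromatin and 5.41 TPM in the rest. Heterochromatic genes held 1.19% and 1.34% of the reads. Ribosomal protein genes led them, namely RpL5 (1862 and 2155 CPM), RpL10 (1223 and 1407 CPM), RpL15 (929 and 1030.4 CPM) and RpL21 (916 and 957 CPM). The chitinase gene Cht10 had 966 and 778 CPM, and the cohesin loader gene Nipped-B had 201 and 224 CPM. The 10 genes of Mzfp1 and of chromatin proteins studied with it were all detected and covered a range of levels. The highest were pzg (137 and 113 CPM) and Cp190 (110.3 and 96.8 CPM), and su(Hw) had 48.8 and 47.1 CPM. M1BP (14.8 and 19.1 CPM), CTCF (17.8 and 12.8 CPM), CG1603 (11.3 and 11.3 CPM) and ZIPIC (4.84 and 3.76 CPM) lay under the median of detected genes, 22.6 CPM.

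The libraries differed little at most genes. Among genes of 1000 CPM or more, 99.3% were within 1.5-fold between the libraries, and among those of 10 to 100 CPM 93.2% were. The median size of the log2 ratio was 0.11 at 100 CPM or more, 0.17 from 10 to 100 CPM and 0.37 from 1 to 10 CPM. Of 6975 genes with a mean of 10 CPM or more, 160 (2.29%) were at least 2-fold higher in replicate 2 and 8 (0.115%) at least 2-fold lower. At least 8-fold higher in replicate 2 were 69 genes (0.989%), and none was 8-fold lower.

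Of these 69 genes, 12 were Tweedle genes, which encode a family of cuticle proteins, 9 were Cpr, Lcp and related cuticle genes, 6 were Osiris genes and 1 belonged to the apical matrix list, while 41 were in none of the lists. The counts are a description: many of these genes reached the mean of 10 CPM only through replicate 2, where they were high, so that such genes had to differ. TwdlM had 1.55 and 564 CPM and TwdlH 1.73 and 346 CPM, while TwdlO (529 and 433 CPM) and TwdlX (98.4 and 98.8 CPM) did not show the gap. Osi6 had 0.183 and 107 CPM. Vajk1 had 0.365 and 205 CPM and Cpr65Ea 0.274 and 128 CPM. Twdlbeta, CG14147, CG2150, CG14095 and TwdlD had 0 reads in replicate 1 and from 795 to 1049 reads in replicate 2. Measured against 3 reads, replicate 2 was at least 424-fold higher for Twdlbeta. The ecdysone-response genes ftz-f1 (18.6 and 111 CPM) and Eip74EF (22.5 and 88.9 CPM) were higher in replicate 2, the only 2 of 13 hormone-response genes at a mean of 10 CPM with a 2-fold gap, and the median log2 ratio of that list was 0.13. Of the genes lower in replicate 2, CG32198 had 19.7 and 2.87 CPM, pirk, an inhibitor of the Imd immune pathway, 22.5 and 8.18 CPM, and ple, the tyrosine hydroxylase, 141 and 62.1 CPM. Shares given for cuticle, Tweedle and Osiris genes thus rest on libraries that stood apart. They were 0.360% and 0.612% for cuticle genes, 0.0975% and 0.263% for Tweedle genes and 0.00235% and 0.0329% for Osiris genes.

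**Figure D5:**
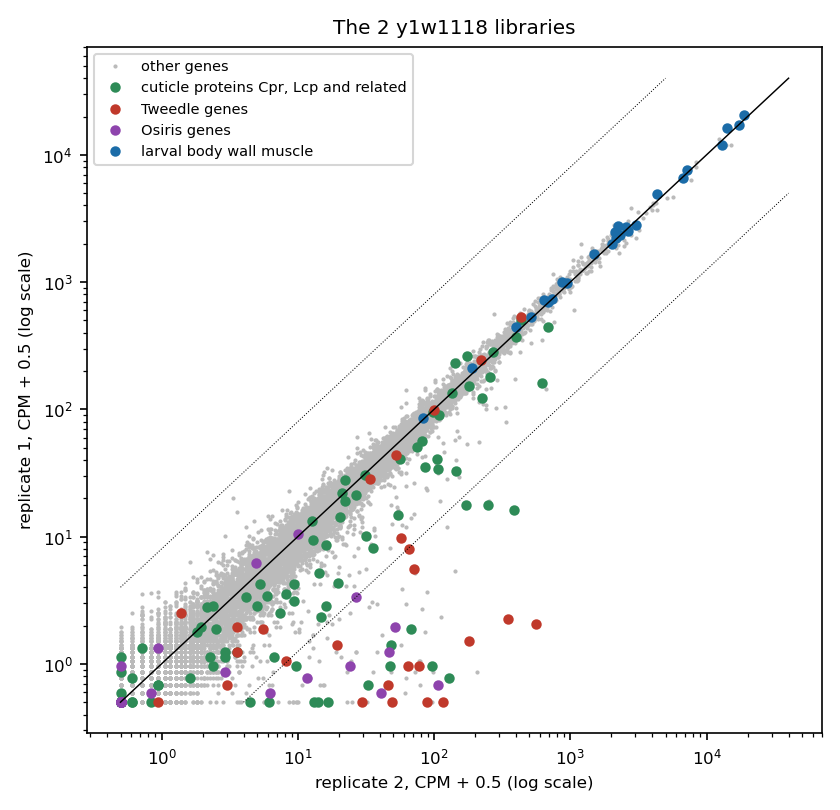
CPM + 0.5 of every gene in replicate 2 (x axis) and replicate 1 (y axis), both on log scales, with the line of equality (solid) and 8-fold differences (dotted); colours mark 4 lists. Muscle genes lie on the line, and Tweedle, Osiris and some cuticle genes lie below the lower dotted line, higher in replicate 2.

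Some genes had few reads in the unstranded column and many in the stranded columns. Reads that fall on more than one gene are left out of the unstranded column, and these reads were 4.10% and 4.85% of all reads. In the summed stranded columns such a read can be counted for both genes, and 478 genes with at least 100 reads there kept under 10% of them in the unstranded column. Of the 475 with annotated exons, 71.2% shared at least 50% of their exon bases with another gene, beside 7.63% of all genes. RpS9 had 1017 and 851 reads against 10692 and 8509 in the stranded sum, and 50.3% of its exon bases lie on those of a gene on the other strand. UQCR-14, a complex III subunit whose exon bases all lie within another gene, had 0 and 0 reads against 1960 and 1720, and Nap1, a histone chaperone, had 17 and 11 against 3984 and 3871. The library kit did not mark strand, so the genes of such a pair cannot be told apart. Histone genes, many of them near-identical copies, were also mostly low. Of 116 histone genes 111 had 3 reads or fewer in each library, beside 5477 of 17597 over all genes. The variant gene His3.3B had 601 and 678 CPM, and 1 gene of the repeated cluster, His2B:CG33868, had 59.4 and 60.9 CPM. Messages of the replication-dependent histone genes also lack a poly(A) tail, and loss of repeated copies and loss of tailless messages cannot be told apart here. Prosalpha1, a proteasome core subunit, had 0 and 0 reads in the unstranded column and 0 and 0 in the stranded sum, while the other 31 of 32 proteasome genes were detected.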

How the data were processed

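Read counts per gene were deposited by the authors as 1 table per library, with an unstranded column and 2 stranded columns. The submitters' processing notes name cutadapt, STAR and the dm6 build; their versions, and the gene models used for counting, were not given in the sources used here. The unstranded column was used because the NEBNext Ultra kit does not mark strand. The 4 summary lines and 138 ribosomal RNA genes were left out, which held 8.04% and 9.62% of the reads on genes. Multimapping reads were 5.58% and 7.10% of all reads. The 138 identifiers that have no symbol in the annotation used here, and 1.22% and 1.25% of the analysed reads with them, were kept under their identifiers.

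CPM were computed without a scaling factor, and TPM from the union of annotated exons (Ensembl release 115, 17459 genes with a length). The log2 ratio of the libraries used a pseudocount of 0.5 CPM. A gene was called detected at 1 CPM in both libraries. By rule, the genes named were the 30 of highest mean CPM, the 15 of highest mean TPM, the 3 to 5 highest of each list by CPM and its defining members at 0 reads, the 10 furthest apart between the libraries in each direction, and RpL32, CG1603, y, w, lncRNA:roX1 and lncRNA:roX2. Other genes were named after their values were seen, and an item that the rule names is not reported here. The members and the 50 lists were chosen with earlier results of these data known. Of these lists 6 were added after their levels were seen, and symbols and patterns were corrected after the files were read. Heterochromatin intervals followed the study's methods.

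The 2 libraries are separate samples of the group by their labels, and no test was run. Alternatives were TMM factors (edgeR 4.0.16), size factors (DESeq2 1.42.0), ribosomal RNA kept, summed stranded columns, TPM, mitochondrial genes left out, other detection limits and either library left out. Calculations used R 4.3.3, Python 3.11.15, numpy 2.4.6 and pandas 2.3.3 and were tested on simulated data. The 3 other libraries of the series were not used here.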

Additional observations from a re-analysis of the deposited data

How the results depend on the processing

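No paired analysis was possible because no test was run on these libraries of 1 group. The share of the 100 most abundant genes, 34.0% of the reads, was 39.4% with ribosomal RNA kept, 32.6% with the stranded columns summed, 38.5% by TPM and 32.6% without mitochondrial genes, and between 33.98% and 34.08% with either library left out. Ribosomal proteins, at 9.07%, gave 8.27% with ribosomal RNA kept, 20.5% by TPM, 9.43% without mitochondrial genes and between 8.86% and 9.29% with either library alone. Muscle, at 10.95%, gave 9.99% with ribosomal RNA kept, 10.5% with the stranded columns summed, 5.18% by TPM, 11.4% without mitochondrial genes and between 10.7% and 11.2% with either library alone. The median of detected heterochromatic genes, 26.9 TPM, was between 26.5 and 29.0 TPM with either library alone, and 3.88 TPM over all such genes without the filter, beside 5.41 TPM for the rest of the arms, so that the order of the groups reversed without the filter. TMM and DESeq2 factors moved no value by more than the spread between the libraries. The core promoter comparison and its alternative were not run. With 2 libraries, the spread of each value is known only roughly.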
